A study of Rattus norvegicus with 12 samples.

Results

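Smooth muscle contractile genes are described here in both atrial appendages of rats with or without a volume overload of the heart. The genes were Acta2, Actg2, Myh11, Myl9, Tagln, Cnn1, Smtn and Lmod1, chosen by name with earlier results of these data known. A probe set (a group of short probes on the array) belonged to them where the array's annotation named 1 of them alone. There were 10 such probe sets of 31042 tested, covering 8 of 14217 named genes: 2 for Smtn, 2 for Myh11 and 1 for each of the others. Where a gene had several, the brightest stood for it and the other is given too. A further 5 probe sets named Acta2 together with the cardiac actin gene Actc1 and were not used.

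The animals were male Sprague-Dawley rats of 225 to 275 g, studied at 28 days after a sham operation or after an aorto-caval shunt, an opening between the abdominal aorta and vena cava that returns extra blood to the heart. Each atrium was taken after each operation, which gives 4 groups of 3 Affymetrix arrays. Each array held RNA pooled from 2 tissues, so p-values measure the spread between pools of animals, and 3 pools a group limit the precision. The labels give the side of the atrium as the source, but their tissue field lists ventricles as well.

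Smooth muscle cells contract when myosin II filaments, built from the heavy chain MYH11 and the regulatory light chain MYL9, pull on filaments of the actins ACTA2 and ACTG2. Phosphorylation of the light chain by myosin light chain kinase switches the motor on. Transgelin, calponin, smoothelin and leiomodin bind the actin filaments, and the whole set is a classic target of serum response factor (SRF) and its partner myocardin, which act through CArG boxes. In the atrial wall vessel smooth muscle makes these transcripts, but not all of them are particular to it. Acta2 and Tagln, for example, are also made by myofibroblasts and, early in development, by heart muscle cells. Which cells made the transcripts measured here was not tested. In tissue RNA such as this, fewer cells of a type and less RNA per cell cannot be told apart.

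The start of a gene's promoter shows what such a box looks like. RefSeq promoters (build GRCr8) were on hand for 4 of the 8 genes: Acta2, Actg2, Cnn1 and Smtn. The 250 bases before each start were searched for the CArG box on both strands, exactly and with at most 1 letter of its A and T centre changed. Acta2 held 2 boxes with 1 letter changed, at -134 to -125 and -84 to -75 from the start, and Actg2, Cnn1 and Smtn held no match. Among 33469 promoters of this length, 1.5% held an exact box and 8.08% a box with at most 1 change. The 150 bases before the start are shown for Acta2, which has the boxes (capitals), and for Smtn, which has none. Smtn had the largest difference between the atria of the 8 genes in sham rats.
Acta2, chr1:241172504-241172653, minus strand: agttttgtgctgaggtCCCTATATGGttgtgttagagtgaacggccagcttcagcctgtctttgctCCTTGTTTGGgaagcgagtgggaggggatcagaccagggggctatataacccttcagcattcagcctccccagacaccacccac
Smtn, chr14:82644515-82644664, minus strand: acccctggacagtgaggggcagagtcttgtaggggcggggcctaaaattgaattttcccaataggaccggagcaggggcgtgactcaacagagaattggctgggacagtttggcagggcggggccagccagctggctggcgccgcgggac
The first Acta2 box, CCCTATATGG, also stood in the Actc1 promoter, at -126 to -117. A match is a description of the letters and shows neither binding nor its absence.

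Values are log2 RMA values, on which a difference of 1 is 2-fold. They share 1 distribution across arrays (array medians 5.442 to 5.472) and are not compared between genes. Nppa, the atrial natriuretic peptide gene that defines atrial muscle, lay at 14.37 to 14.43 on all 12 arrays, at the top of the scale. On the second principal component, left atrium shunt replicate 3 lay at -26.70, far from the other arrays of its group at 14.95 and 13.62. Right atrium shunt replicates 2 and 3 carried more of the ventricular light chain gene Myl2 (12.83 and 12.82) than replicate 1 (11.45). Several results that rest on these arrays, but not all, are given with and without them.

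The first question was how the atria differ. Most of the 8 smooth muscle genes, but not all, were higher in left than in right appendages. RNA probes and ventricular markers differed between the sides too, as given below, and their part was not tested. Of the 8 genes, 5 were higher on the left in sham rats (Smtn, Tagln, Myh11, Acta2 and Myl9) and 6 after the shunt, when Actg2 was added. None was lower. The median difference was 0.33 log2 in sham rats and 0.38 after the shunt, against 0.04 over all genes in each. The atria differed widely: of all 14217 genes, 22.2% were higher and 15.4% lower on the left in sham rats, and 21.0% and 19.4% after the shunt. Averaged over both operations 6 of 8 were higher, where 30.0% of all genes were higher and 22.8% lower. Cnn1 and Lmod1 were the 2 that did not pass.

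**Figure D1:**
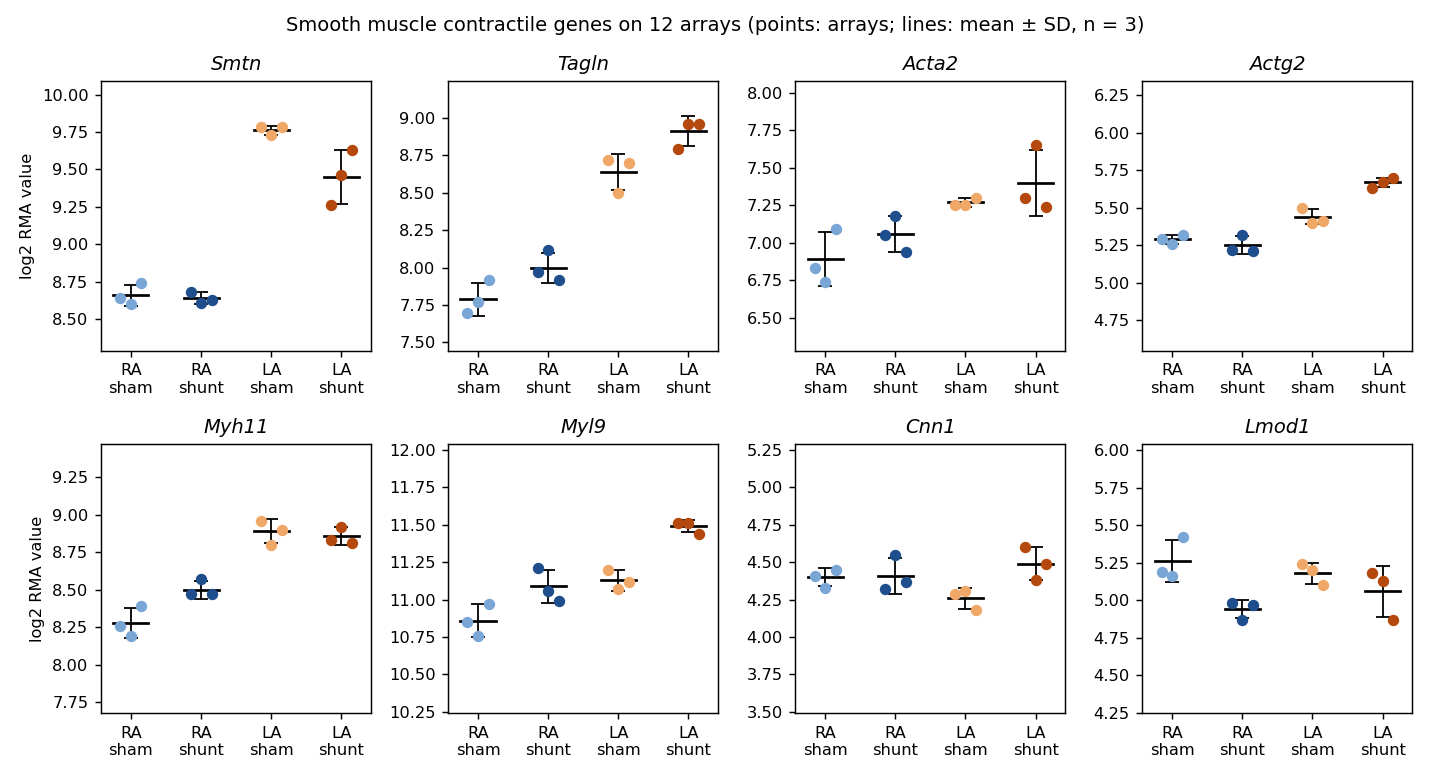
Log2 RMA value of each gene on every array (points), by group, with the group mean and SD (n = 3); each panel spans the same 1.8 log2 units, RA is right atrium and LA left atrium. Smtn, Tagln, Myh11, Acta2 and Actg2 lie higher on all 6 left than on all 6 right arrays, while Myl9, Cnn1 and Lmod1 overlap.

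Among the actins, Acta2 encodes the alpha actin of vascular smooth muscle. It lay at 6.83, 6.74 and 7.09 on the right sham arrays, at 7.05, 7.18 and 6.94 on the right shunt arrays, at 7.25, 7.25 and 7.30 on the left sham arrays and at 7.30, 7.65 and 7.24 on the left shunt arrays. Every left array was above every right one. The left minus right difference was 0.38 ± 0.12 in sham rats (SE, adjusted p = 0.0214) and 0.34 ± 0.12 after the shunt (adjusted p = 0.035). Both calls turned on single arrays. In sham rats Acta2 was not called without right atrium sham replicates 1 or 2 (adjusted p = 0.068 and 0.0908) or left atrium sham replicate 3 (0.0596). After the shunt the call was lost without right atrium shunt replicates 1 or 3 (0.0784 and 0.121) or left atrium shunt replicate 2 (0.145, with a difference of 0.22). Averaged over operations it was 0.36 ± 0.08 (adjusted p = 0.0027) and passed in all 12 exclusions.

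Actg2 encodes the gamma actin typical of visceral smooth muscle. Its probe set was dim, near the median of all values (5.456). It lay at 5.26 to 5.32 on the right sham arrays, at 5.21 to 5.32 on the right shunt arrays, at 5.50, 5.40 and 5.41 on the left sham arrays and at 5.63, 5.67 and 5.70 on the left shunt arrays. The 3 left shunt arrays were above all others. The left minus right difference was 0.15 ± 0.07 in sham rats (adjusted p = 0.0934) and 0.42 ± 0.07 after the shunt (adjusted p = 0.000418). The change in that difference, the interaction, was 0.27 ± 0.09 and did not pass (adjusted p = 0.235).

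Of the myosin genes, Myh11 lay at 8.26, 8.19 and 8.39 on the right sham arrays, at 8.47, 8.57 and 8.47 on the right shunt arrays, at 8.96, 8.80 and 8.90 on the left sham arrays and at 8.83, 8.92 and 8.81 on the left shunt arrays. The left arrays were above the right ones throughout. The difference was 0.60 ± 0.08 in sham rats (1.52-fold, adjusted p = 7.06e-05) and 0.35 ± 0.08 after the shunt (1.28-fold, adjusted p = 0.00337), and the interaction of -0.25 ± 0.11 did not pass (adjusted p = 0.316). The second Myh11 probe set was very dim, between 3.71 and 4.73. It was also higher on the left, by 0.51 ± 0.12 in sham rats (adjusted p = 0.0063) and by 0.61 ± 0.12 after the shunt (adjusted p = 0.00214).

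Myl9, the regulatory light chain, lay at 10.85, 10.76 and 10.97 on the right sham arrays, at 11.21, 11.06 and 10.99 on the right shunt arrays, at 11.20, 11.07 and 11.12 on the left sham arrays and at 11.51, 11.51 and 11.44 on the left shunt arrays. Within each operation the left arrays were above the right ones, but the right shunt and left sham arrays overlapped. The left minus right difference was 0.27 ± 0.08 in sham rats (adjusted p = 0.0185) and 0.40 ± 0.08 after the shunt (adjusted p = 0.00209). The sham call was lost without right atrium sham replicates 1 or 2 (adjusted p = 0.0504 and 0.0811), without left atrium sham replicate 1 (0.0696) and after quantile normalization again (0.0926). With right atrium shunt replicate 1 as the only array of its group, the shunt call was lost too (0.28, adjusted p = 0.115).

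Of the actin-binding proteins, smoothelin (Smtn) is a marker of contractile smooth muscle and has a short form in visceral and a long form in vascular muscle. Smtn lay at 8.64, 8.60 and 8.74 on the right sham arrays, at 8.68, 8.61 and 8.63 on the right shunt arrays, at 9.78, 9.73 and 9.78 on the left sham arrays and at 9.26, 9.46 and 9.63 on the left shunt arrays. In sham rats it had the largest difference between the atria of the 8 genes, 1.11 ± 0.09 (2.15-fold, adjusted p = 2.57e-06), by the brightest probe sets. After the shunt it was 0.81 ± 0.09 (1.76-fold, adjusted p = 3.46e-05), below Tagln. The second Smtn probe set, at 5.57 to 5.80 on the right and 6.65 to 7.07 on the left, gave 1.29 ± 0.11 and 1.07 ± 0.11. The interaction at the first probe set was -0.29 ± 0.12 (adjusted p = 0.314).

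Tagln (transgelin, or SM22) was next in sham rats and had the largest difference of the 8 genes after the shunt, by the brightest probe sets. It lay at 7.70, 7.77 and 7.92 on the right sham arrays, at 7.97, 8.12 and 7.92 on the right shunt arrays, at 8.72, 8.50 and 8.70 on the left sham arrays and at 8.79, 8.96 and 8.96 on the left shunt arrays. All left arrays were above all right ones. The difference was 0.85 ± 0.09 in sham rats (1.8-fold, adjusted p = 2.35e-05) and 0.90 ± 0.09 after the shunt (1.87-fold, adjusted p = 2.37e-05). Smtn, Tagln and Myh11 passed in both operations in all 12 exclusions of an array and all 7 other planned settings.

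Cnn1 and Lmod1 did not follow. Cnn1 (calponin 1, which damps actomyosin activity) was dim, at 4.41, 4.33 and 4.45 on the right sham arrays, 4.32, 4.55 and 4.37 on the right shunt arrays, 4.29, 4.31 and 4.18 on the left sham arrays and 4.60, 4.38 and 4.49 on the left shunt arrays. Averaged over operations it differed by -0.03 (95% interval -0.16 to 0.10, adjusted p = 0.686). Lmod1 (leiomodin 1, which starts new actin filaments) lay at 5.19, 5.16 and 5.42 on the right sham arrays, 4.98, 4.87 and 4.97 on the right shunt arrays, 5.24, 5.20 and 5.10 on the left sham arrays and 5.18, 5.13 and 4.87 on the left shunt arrays. It differed by 0.02 (95% interval -0.13 to 0.17, adjusted p = 0.819). Lmod1, like Cnn1, was dim, below the median of all values, so these small differences are not set against those of the brighter probe sets.

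The groups of arrays did not overlap, with the left higher, for 6 of the 8 genes in sham rats, where 30.2% of all genes did so, and for 6 after the shunt, where 28.5% did. Cnn1 went the other way in sham rats, with the left arrays all below the right ones by a gap of 0.0222, where 22.6% of all genes did so. In order of mean level, Tagln, Acta2 and Myl9 ran from right sham through right shunt and left sham to left shunt. For Acta2 the ranges of sham and shunt arrays overlapped in each atrium. For Myl9 the middle 2 groups, 11.09 ± 0.11 and 11.13 ± 0.07 (SD, n = 3), differed by less than their spread. For Smtn the order was right shunt (8.64 ± 0.04), right sham (8.66 ± 0.07), left shunt (9.45 ± 0.18) and left sham (9.76 ± 0.03), and the 2 right groups differed by less than their spread.

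**Figure D2:**
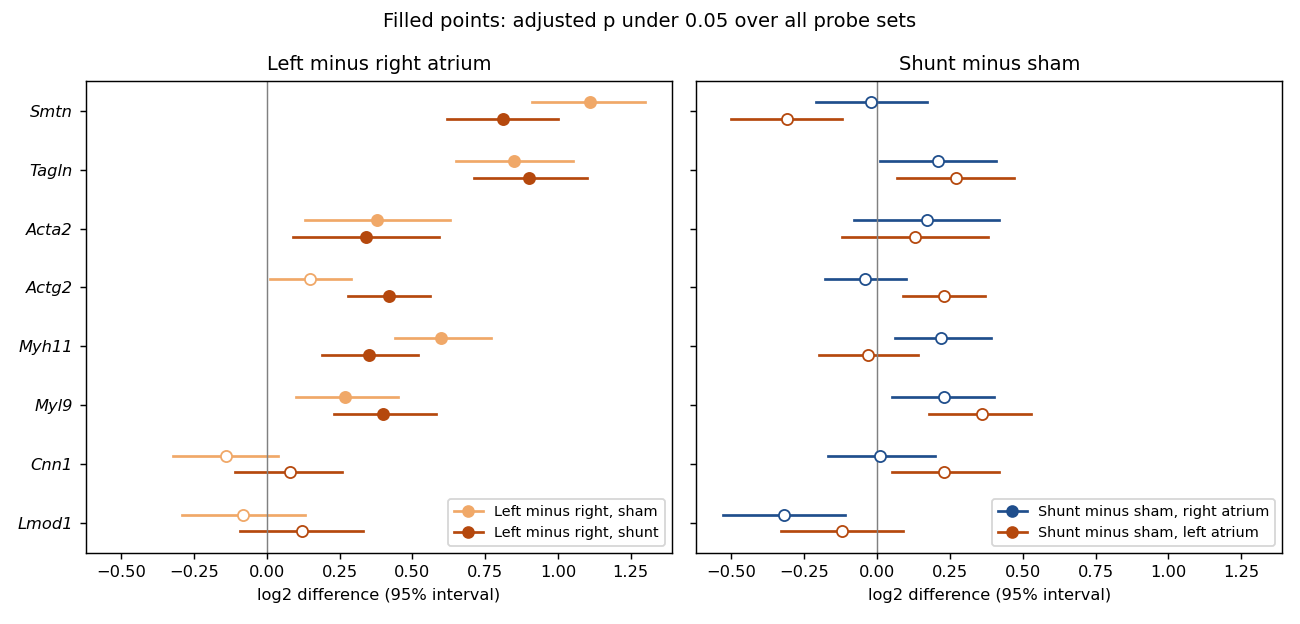
Log2 differences of the 8 genes with 95% intervals, for left minus right atrium in sham and shunt rats (left panel) and for shunt minus sham in each atrium (right panel); filled points passed an adjusted p of 0.05. The left panel holds 11 filled points, all above 0, and the right panel none.

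The second question was what the shunt changed. In neither atrium alone did any of the 8 genes pass. In the right atrium 4 of the 8 had an unadjusted p under 0.05 (Tagln, Myh11, Myl9 and Lmod1), where 22.4% of all genes had one. In the left atrium 5 did (Smtn, Tagln, Cnn1, Myl9 and Actg2), against 14.7%. At the adjusted threshold 3.97% of all genes passed in the right atrium and 0.935% in the left, in either direction. Averaged over both atria Myl9 alone rose, by 0.29 ± 0.06 (1.23-fold, adjusted p = 0.0138), where 3.4% of all genes rose and 1.86% fell. The median of the 8 genes was 0.09 in the right atrium, 0.18 in the left and 0.11 averaged, against 0.02, -0.01 and 0 over all genes.

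Myl9 gave similar values in each atrium, 0.23 ± 0.08 in the right (adjusted p = 0.141) and 0.36 ± 0.08 in the left (adjusted p = 0.0693), with all shunt arrays above all sham arrays of the same atrium. The averaged call passed in all 12 exclusions and all 6 other planned settings, with adjusted p up to 0.0406. It missed the threshold with right atrium shunt replicate 1 as the only array of its group (0.35, adjusted p = 0.0503). Tagln was 0.21 ± 0.09 in the right atrium (adjusted p = 0.235), 0.27 ± 0.09 in the left (adjusted p = 0.22) and 0.24 ± 0.07 averaged (adjusted p = 0.0663). Acta2 was 0.15 ± 0.08 averaged, with a 95% interval of -0.03 to 0.33 (adjusted p = 0.376).

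Other members gave values in 1 atrium that did not pass. Smtn was at -0.31 ± 0.09 in the left atrium (adjusted p = 0.132) and at -0.02 ± 0.09 in the right (adjusted p = 0.937). Without left atrium shunt replicate 3 Smtn in the left atrium was -0.40 and passed (adjusted p = 0.0284), as did its average over both atria (-0.21, adjusted p = 0.041). Its second probe set gave -0.13 ± 0.11 in the left atrium (adjusted p = 0.636). Myh11 was at 0.22 ± 0.08 in the right atrium (adjusted p = 0.132) and -0.03 ± 0.08 in the left (adjusted p = 0.903). Its dim second probe set gave -0.22 ± 0.12 in the right atrium (adjusted p = 0.347), the opposite sign.

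Actg2 was at 0.23 ± 0.07 in the left atrium (adjusted p = 0.132) and -0.04 ± 0.07 in the right (adjusted p = 0.797). Cnn1 was at 0.23 ± 0.08 in the left atrium (adjusted p = 0.244) and 0.01 ± 0.08 in the right (adjusted p = 0.949). Lmod1 was at -0.32 ± 0.10 in the right atrium (adjusted p = 0.096; 0.0447 without left atrium shunt replicate 3) and -0.12 ± 0.10 in the left (adjusted p = 0.627). Shunt and sham arrays did not overlap for 4 genes in the right atrium, 3 higher (Tagln, Myh11, Myl9) and 1 lower (Lmod1), where 32.1% of all genes did so. For Tagln the gap was 0.0005 and the nearest arrays were level at 7.92, so in practice its groups touched. In the left atrium they did not overlap for 5, 4 higher (Tagln, Cnn1, Actg2, Myl9) and 1 lower (Smtn), against 19.1%. No interaction passed in limma for the 8 genes (3 had an unadjusted p under 0.05, against 14.5% of all genes), where 0.0281% of all genes passed. The beta-actin 3' minus 5' probe difference, which grows as RNA degrades, was higher on the right shunt arrays (2.03, 1.96 and 1.91) than on the right sham arrays (1.82, 1.59 and 1.58). In the left atrium it was 1.14, 1.23 and 1.39 after the shunt and 1.31 on each sham array. Its part in the shunt values was not tested.

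Acta1 and Actg1 were the other actin genes with probe sets of their own. Acta1, the skeletal actin of the fetal heart and no smooth muscle gene, rose by 1.35 ± 0.10 averaged over both atria (2.55-fold, adjusted p = 3.5e-05) and did not pass between the atria (-0.10, adjusted p = 0.416). It lay at 9.86 to 10.44 on the right sham arrays, 11.68 to 11.76 on the right shunt arrays, 10.03 to 10.39 on the left sham arrays and 11.24 to 11.57 on the left shunt arrays. Actg1, a cytoplasmic actin, was at 0.06 for the shunt (adjusted p = 0.585) and at 0.05 for left minus right (adjusted p = 0.471); as the mean of its probe sets it was at -0.05 and -0.08.

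Lists of partner genes of the pathway are all given as left minus right averaged over operations. Their counts are read against the 30.0% of all genes higher and 22.8% lower on the left. Of 13 genes of light chain phosphorylation 7 were higher on the left, 4 lower and 2 did not pass. Those named are Rhoa (0.85 ± 0.09), the GTPase that holds the phosphatase off, Ppp1r12c (0.71 ± 0.06), a myosin phosphatase subunit, Ppp1r14a (0.65 ± 0.07), the phosphatase inhibitor CPI-17, and the kinase gene Dapk3 (0.51 ± 0.06). Mylk, the light chain kinase, was higher by 0.24 (adjusted p = 0.00153). Of 13 thin filament and actin-binding partners 5 were higher and 3 lower, among them Cnn2 (0.68 ± 0.07), a non-muscle calponin, and Flna (0.67 ± 0.05), an actin crosslinker. Cald1 (caldesmon) was lower by 0.41, but as the mean of its probe sets it was at -0.13 (adjusted p = 0.134), and Tpm2 was at 0.23 (adjusted p = 0.053).

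The same shares of all genes (30.0% higher, 22.8% lower) stand beside the lists that follow. Of 14 anchor and adhesion genes 8 were higher on the left, none lower and 6 did not pass. The 8 included the integrins Itga5 (1.06 ± 0.06) and Itga7 (0.86 ± 0.08), the focal adhesion gene Zyx (0.73 ± 0.08) and Des (desmin, 0.29, adjusted p = 0.00122), which heart muscle also makes. Of 3 non-muscle myosin heavy chains Myh9 (1.09 ± 0.09) and Myh14 (0.38 ± 0.05) were higher. Of 9 genes listed as smooth muscle receptors and channels 2 were higher, Kcnma1 (0.33 ± 0.08) and its beta subunit Kcnmb1 (0.26 ± 0.06). The 3 lower ones included Pln (-0.27 ± 0.05) and Gucy1b1 (-0.31 ± 0.08). Pln is neither a receptor nor a channel, and heart muscle also makes it. Both Kcnma1 (group means 3.56 to 4.02) and Kcnmb1 (3.80 to 4.16) were dim.

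Of 9 genes of SRF and myocardin control 3 were higher on the left, 3 lower and 3 did not pass. The shares of all genes were 30.0% higher and 22.8% lower, so these counts alone do not set the regulators apart. Myocd, which encodes myocardin, lay at 8.84 to 9.13 on the 6 right arrays and at 7.21 to 8.38 on the 6 left arrays. It was lower on the left by 1.24 ± 0.16 log2 (-1.24, adjusted p = 3.58e-05), the opposite side from the 6 genes that were higher there. Heart muscle cells also make Myocd. Srf did not pass (0.16, adjusted p = 0.0783), Mrtfa, another SRF partner, was higher (0.45 ± 0.06), and Elk4 (-1.16 ± 0.04), an SRF partner of the ETS family, and Fhl2 (-1.12 ± 0.13) were lower.

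**Figure D3:**
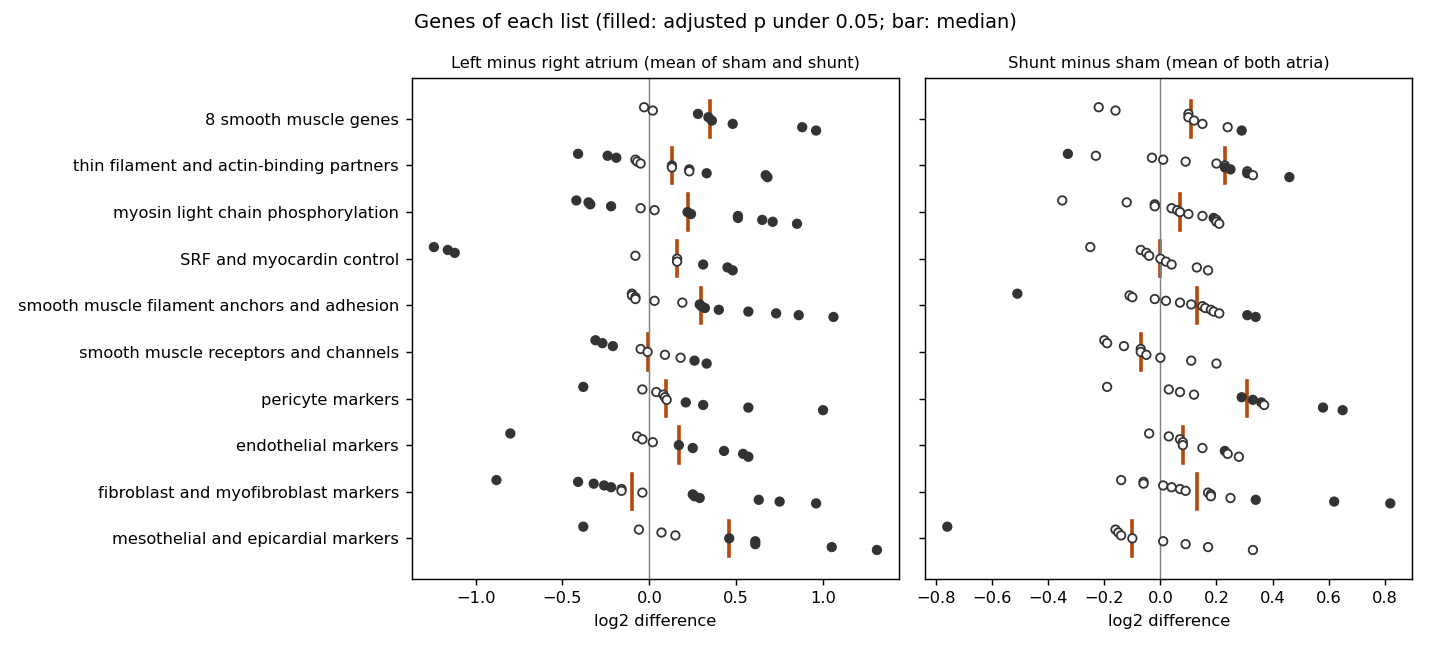
Log2 difference of every measured gene of each list (points; filled where the adjusted p was under 0.05) and the list's median (bar), for left minus right atrium (left) and shunt minus sham (right). The 8 smooth muscle genes have medians of 0.35 and 0.11, and the SRF and myocardin list holds 3 genes below -1 between the atria.

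Marker lists of neighbouring cells are read against the 30.0% of all genes higher and 22.8% lower on the left, and their part in the smooth muscle values was not tested. Of 10 pericyte markers 4 were higher on the left and 1 lower (median 0.09), led by Vtn (1.0 ± 0.08) and, on the lower side, Abcc9 (-0.38 ± 0.06). Pdgfrb was higher by 0.57 ± 0.10. Of 9 endothelial markers 5 were higher and 1 lower (median 0.17), with Tie1 at 0.57 ± 0.05 and Kdr at -0.80 ± 0.06. Of 14 fibroblast markers 6 were higher and 5 lower (median -0.10). Col1a1 was at 1.17 in sham rats and 0.74 after the shunt, and Col1a2 at 0.86 and 0.65. On the lower side Postn was at -0.23 in sham rats, which did not pass, and at -1.54 after the shunt. Of 9 mesothelial and epicardial markers 5 were higher and 1 lower (median 0.46), with Msln at 1.31 ± 0.12 and Krt19 at 1.05 ± 0.11. Of 10 TGF-beta signalling genes 3 were higher and 4 lower, of 11 macrophage markers 5 were lower, of 7 adipocyte markers 2 were higher, and of 9 neuronal markers 2 were higher and 1 lower. The mean of the mesothelial markers lay at 6.05 to 6.44 on right and 6.27 to 6.82 on left arrays.

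Heart muscle and RNA probes differed too. Of 7 ventricular markers 6 were lower on the left and 1 higher, and their mean was 8.75 to 10.06 on the right arrays and 6.94 to 8.02 on the left. The largest difference was that of Myl2. It was -5.69 in sham rats (means 5.26 left, 10.94 right) and -6.38 after the shunt (5.99 left, 12.37 right). None of 7 atrial muscle markers passed in limma (median 0.02, 2 with an unadjusted p under 0.05, against 58.4% of all genes). The beta-actin 3' minus 5' difference was 1.58 to 2.03 on the right and 1.14 to 1.39 on the left arrays, without overlap, and that of GAPDH was 0.32 to 0.40 and 0.18 to 0.28. Whether these differences bear on the smooth muscle values was not tested.

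**Figure D4:**
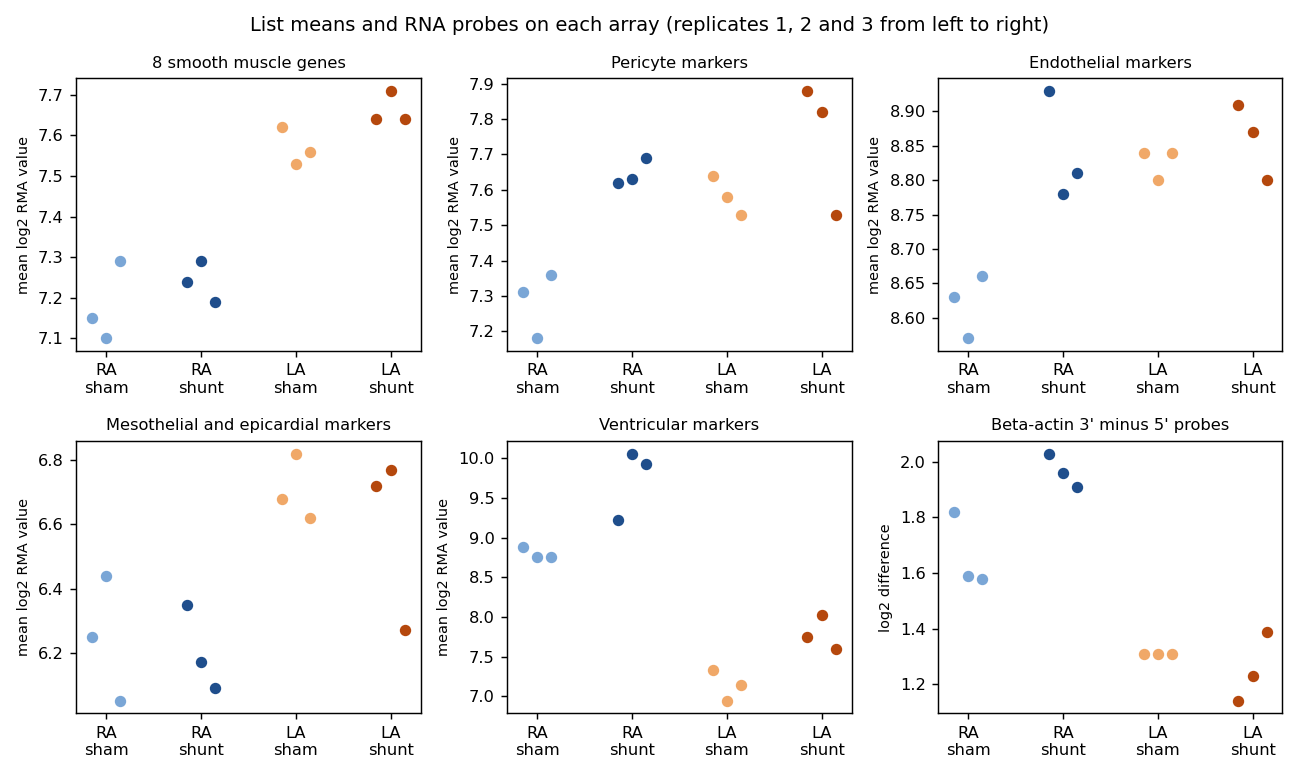
Mean log2 RMA value of the 8 genes and of 4 marker lists on each array, and the beta-actin 3' minus 5' difference (bottom right). The mean of the 8 genes is 7.10 to 7.29 on the right and 7.53 to 7.71 on the left arrays, and the beta-actin difference runs the other way.

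For the shunt, averaged over both atria, 3.4% of all genes rose and 1.86% fell. Of 13 thin filament partners 4 rose, among them Actn1 (0.46 ± 0.08), an actin crosslinker, and Flna (0.25 ± 0.05). Smtnl2, a smoothelin-like gene, fell by 0.33 (-0.33 ± 0.06). Of 14 anchor genes 2 rose, led by Itga5 (0.34 ± 0.06), and Pdlim3, which heart muscle also makes, fell (-0.51 ± 0.08). In light chain phosphorylation 1 of 13 rose. None of the 9 SRF and myocardin genes and none of the 9 receptor and channel genes passed in limma (3 of each had an unadjusted p under 0.05, against 21.2% of all genes). Without left atrium shunt replicate 3 the thin filament count was 8 and the light chain count 3. Leaving out each array called 672 to 2018 of all probe sets, so these counts are not read against the 3.4%. With right atrium shunt replicate 1 as the only array of its group Flna (adjusted p = 0.0932), Smtnl2 (0.0836), Pdlim3 (0.0574) and the pericyte marker Mcam (0.0521) did not pass.

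Markers of other cells are read against the same 3.4% of all genes that rose and 1.86% that fell with the shunt. Averaged over both atria, 5 of 10 pericyte markers rose and none fell (median 0.31), with Pdgfrb at 0.65 ± 0.10 and Mcam at 0.58 ± 0.09. Of 7 ventricular markers 5 rose (median 0.89) and of 14 fibroblast markers 3 (median 0.13). Of 11 macrophage markers 2 rose (median 0.27), and 8 had an unadjusted p under 0.05 in limma, against 21.2% of all genes. Of 9 neuronal markers 2 rose and of 9 endothelial markers 1. Of 9 mesothelial markers 1 fell, as did 1 of 7 atrial muscle markers. None of 7 adipocyte markers passed in limma (1 had an unadjusted p under 0.05, against the same 21.2%). On left atrium shunt replicates 1, 2 and 3 the mean of the neuronal markers was 4.65, 4.86 and 5.23. That of the adipocyte markers was 5.55, 6.12 and 6.88. Neither list is given without replicate 3, here or between the atria. The part of all these markers in the values of the 8 genes was not tested.

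These counts turned on the arrays named at the outset. The count over all probe sets moved too, at 672 to 2018 for the averaged shunt as each array was left out. Counts with fewer arrays are therefore not read against a share of all genes. Without left atrium shunt replicate 3, 6 pericyte, 8 macrophage, 5 fibroblast and 5 ventricular markers rose. With right atrium shunt replicate 1 as the only array of its group, 1 of each of these lists did, and 1 thin filament partner. Of all genes 3.97% passed in the right atrium alone and 0.935% in the left, in either direction. Pericyte markers rose in 5 of 10 in the right atrium alone and in none in the left. In the left 3 had an unadjusted p under 0.05 in limma, against 14.7% of all genes. Without left replicate 3, whose pericyte mean was 7.53 against 7.88 and 7.82, they rose in 3 in the left. No pericyte interaction passed in limma (4 of 10 had an unadjusted p under 0.05, against 14.5% of all genes).

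The genes whose profile over the 12 arrays was most like the mean of the 8 genes were Vdac1, a mitochondrial outer membrane channel (Pearson r = 0.992), Heyl (0.986), LOC100910973 (0.986), Gipc3 (0.981), Prdx6 (0.978) and Dazap1 (0.978), and leaving out any 1 array kept each at 0.975 or more. The arrays share a split into left and right, which these values mostly follow. Heyl, a Notch target gene, had group means of 6.65 and 6.86 on the right and 7.96 and 8.04 on the left. With the mean of each group taken out, other genes led: Eif2b5 (0.966), Chga (0.947), Rapsn (0.925), Metap1d (0.917), Acox3 (0.915) and Coq9 (0.911). Leaving out 1 array took these as low as 0.776 (Coq9), 0.793 (Metap1d) and 0.809 (Rapsn). Chga was dim (group means 3.6 to 3.93). The genes of both rankings were picked by their r from all genes, so high values are built in. Within the 8 genes, r with their own mean over the 12 arrays was 0.848 to 0.985 for Myl9, Smtn, Acta2, Actg2, Myh11 and Tagln, and 0.025 for both Cnn1 and Lmod1, each gene being part of that mean. With group means taken out Smtn was at 0.313, Cnn1 at 0.251 and Lmod1 at 0.5, and the other 5 lay between 0.722 and 0.921.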

How the data were processed

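Gene expression in 12 atrial RNA pools was measured on 1-colour Affymetrix arrays. The authors deposited log2 values per probe set, made with RMA (background subtraction, quantile normalization, probe set summary) per the submitters' processing notes, and these were used as deposited, so a change shared by most transcripts is not visible. Groups and replicate numbers came from the sample titles. Of 31099 probe sets, 57 controls were left out. A single gene was named for 20826 of the 31042 tested.

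limma 3.58.1 in R 4.3.3 (lmFit, contrasts.fit, eBayes) estimated the 4 group means from all 12 arrays together. Tests were two-sided, with Benjamini-Hochberg adjustment over all 31042 probe sets and a threshold of 0.05, and every adjusted p is from limma. Shares over all genes use the brightest probe set of each. The fit was tested on simulated data.

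The 8 genes and the gene lists were chosen with earlier results of these data known. Named from each list were up to 4 genes past the threshold with the smallest p, and, whatever their values, Acta1, Actg1, Srf, Myocd, Mylk, Des, Cald1 and Tpm2. Likeness was Pearson r with the mean centred profile of the 8 genes. Same-numbered arrays were not treated as paired. The alternatives are given in the closing section.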

Additional observations from a re-analysis of the deposited data

How the results depend on the processing

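Main settings called 923 probe sets in the right atrium, 233 in the left, 1198 for the averaged shunt and 8 for the interaction, and 11214 (sham), 11690 (shunt) and 15571 (averaged) for left minus right. Array weights gave 2352, 370, 1867 and 15 for the first 4, and fitting only the groups compared gave 1415 and 13 for the right and left atrium. Without dim probe sets, which leaves out Cnn1, Lmod1 and Actg2, there were 476 in the left atrium, 17 for the interaction and 9536 for left minus right averaged. With a trended and robust prior there were 485 in the left atrium and 15 for the interaction. Averaging the probe sets of each gene, which tests fewer features, gave 5804, 6249 and 7951 for left minus right. With right atrium shunt replicate 1 as the only array of its group, an alternative chosen after seeing the data that assumes it varies like the other groups, counts were 19, 86, 239 and 0, and 4797 for left minus right after the shunt. Leaving out each array gave 148 to 1631, 77 to 554, 672 to 2018 and 0 to 21. Other than the built-in effects of fewer features or arrays, the cause was not tested.

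Of the 8 genes, 0 passed in the right atrium, but 1 with the trended prior (Myl9) and 1 with array weights (Lmod1), and 0 to 1 leaving out each array. In the left atrium 0 passed, but 1 (Myl9) without dim probe sets, with the trended prior and with mean probe sets, and 0 to 1 leaving out each array. Averaged over both atria 1 passed (Myl9), 2 (with Tagln) under those same 3 settings, 1 to 2 leaving out each array, and 0 with replicate 1 alone. Left minus right called 5 genes in sham rats (3 to 5 leaving out each array) and 6 after the shunt (5 to 6); the average called 6 in every setting but the one without dim probe sets, which drops Actg2 and called 5. Acta2 after the shunt was also lost when only the groups compared were fitted (0.34, adjusted p = 0.0672).

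In the settings run, signs turned for small values. With mean probe sets Smtn in the right atrium was 0.03, Myh11 averaged over both atria -0.04, and Actg1 -0.05 for the shunt and -0.08 for left minus right. After quantile normalization again Myh11 in the left atrium was 0.00, the Acta2 interaction 0.06 (0.03 with array weights) and Myocd for the averaged shunt -0.01. With replicate 1 alone Smtn was 0.02 and Cnn1 -0.08 in the right atrium, Myocd -0.06 for the averaged shunt and Cnn1 0.02 for left minus right averaged. Leaving out each array, ranges that crossed 0 were -0.05 to 0.02 for Smtn and -0.05 to 0.06 for Cnn1 in the right atrium, -0.07 to 0.01 for Myh11 in the left, -0.01 to 0.12 for the Tagln and -0.17 to 0.04 for the Acta2 interaction. They were -0.13 to 0.01 for Lmod1 in sham left minus right, -0.06 to 0.00 for Cnn1 and -0.01 to 0.07 for Lmod1 in its average, and -0.01 to 0.06 for Des and -0.17 to 0.12 for Myocd in the averaged shunt.

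Arrays with the same replicate number deviated together weakly across the atria (r = 0.079 to 0.148) and not across operations (-0.076 to -0.006). The labels do not say whether left and right pools came from the same rats, and these weak values cannot settle it. The numbers were not taken as pairs, so the left minus right p-values of limma treat the pools as independent. With the replicate block the interaction count was 3, and no call among the 8 genes changed.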
